A study of Mus musculus with 7 samples.

Results

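Lipid handling by nuclear receptors was examined through 10 genes, chosen by symbol among the 28666 genes of the deposited table: the receptors Nr1h3 and Pparg, the sterol efflux genes Apoe, Abca1 and Abcg1, the uptake genes Mylip and Lpl, the lipid droplet gene Plin2, and the fatty acid carriers Fabp4 and Fabp5. Their expression was compared between 4 libraries of mature and 3 libraries of immature bone marrow-derived dendritic cells (BMDCs), antigen-presenting cells grown from mouse marrow. Marrow of female C57BL/6 mice aged 6 to 8 weeks was cultured for 7 days with GM-CSF at 20 ng/mL and IL-4 at 10 ng/mL. The BMDCs were then kept across a Transwell membrane from MC38 cells, a mouse colon adenocarcinoma line. The study's text gives 24 h of DON, an antagonist of glutamine, and its scheme of the sort names DMSO or DON at 5 uM, after which mature and immature cells were separated by flow sorting. Both groups thus share the cytokines and the tumor co-culture. The sample labels give stage alone, so it is not known here which libraries came from DON or from DMSO, and the sort markers are not given in the sources used here. The study's statistics section speaks in general of independent biological experiments, but whether these libraries came from separate mice or cultures is not stated for them, and p values therefore measure the spread between these samples, which may be technical.

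The liver X receptors, LXRα (Nr1h3) and LXRβ (Nr1h2), sense oxidized cholesterol, and PPARγ (Pparg) senses fatty acids and their derivatives. Each binds DNA as a pair with a retinoid X receptor (RXR). In macrophages and dendritic cells, LXR is known for switching on cholesterol export through Apoe, Abca1 and Abcg1 and for limiting uptake through Mylip, whereas PPARγ, which IL-4 induces in myeloid cells, is known for driving the uptake, carriage and storage of fatty acids through Fabp4, Plin2 and Lpl. RXR pairs recognize direct repeats of a hexamer, spaced by 1 base for PPAR and by 4 bases for LXR.

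To show the regulatory DNA in question, the 250 bases before each RefSeq transcription start (GRCm38.p6) were searched on both strands for the hexamers AGGTCA and GGGTCA. RefSeq windows were matched for 6 of the 10 genes, in 11 windows. None was matched for Abcg1, Lpl, Fabp4 or Fabp5, so these genes were not searched. Such a hexamer lay in 4 windows, of Pparg, Apoe and Plin2, and 23.8% of all 32851 windows of this length held one. No window of these 6 genes held a direct repeat of these exact hexamers spaced by 1 base or by 4 bases. Such repeats lay in 0.0913% and 0.0335% of all windows. Repeats whose hexamers differ from these letters were not searched for, so response elements of looser sequence may be present. One window of each of these 3 genes is given with a hexamer in capitals. It is printed 5′ to 3′ on the strand of the gene and without bases that GENCODE M21 places in an exon of the gene. In Pparg the bases left out held a second hexamer, AGGTCA, 9 to 4 bases before the RefSeq start. The windows are Pparg at chr6:115362099-115362291 (plus strand, 193 bases, inside the annotated gene), Apoe at chr7:19699189-19699438 (minus strand, 250 bases, directly upstream of the gene) and Plin2 at chr4:86670061-86670309 (minus strand, 249 bases, directly upstream of the gene).
Pparg: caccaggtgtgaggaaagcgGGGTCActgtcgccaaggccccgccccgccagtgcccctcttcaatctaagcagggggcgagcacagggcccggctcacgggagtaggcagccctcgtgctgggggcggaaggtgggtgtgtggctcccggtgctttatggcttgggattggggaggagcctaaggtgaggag
Apoe: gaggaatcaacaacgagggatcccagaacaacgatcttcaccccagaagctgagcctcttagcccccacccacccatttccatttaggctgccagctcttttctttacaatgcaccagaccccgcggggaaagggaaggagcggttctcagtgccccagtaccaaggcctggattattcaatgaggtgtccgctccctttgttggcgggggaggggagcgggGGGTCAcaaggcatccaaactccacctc
Plin2: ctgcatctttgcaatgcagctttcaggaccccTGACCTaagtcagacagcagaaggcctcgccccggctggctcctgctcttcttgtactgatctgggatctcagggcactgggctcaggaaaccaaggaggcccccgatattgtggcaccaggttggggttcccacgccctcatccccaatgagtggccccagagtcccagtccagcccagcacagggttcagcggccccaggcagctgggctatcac
The capitals mark GGGTCA on the gene's strand in Pparg and in Apoe, and AGGTCA read from the opposite strand, printed as TGACCT, in Plin2. A match of these letters is a description of the sequence and not a bound site.

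Libraries held 54846746 to 67973086 counts. Levels are given as FPKM, which scales fragments by transcript length and library total, where genes are compared with each other, and as CPM, which scales counts by the TMM-adjusted library total, where groups are. The test was edgeR's quasi-likelihood test across 17461 genes, with Benjamini-Hochberg adjustment, and a gene passed by the criteria of the study if its log2 fold change reached 1 in either direction at an adjusted p under 0.05. As a check of the label, Itgax (CD11c, the dendritic cell integrin) was at 240.03 to 260.68 FPKM in immature and, lower, at 160.84 to 227.19 FPKM in mature libraries. Ccr7, the homing receptor of mature dendritic cells, was at 86.51 to 92.04 FPKM in immature and 1147.16 to 1283.45 FPKM in mature libraries. Of 12 dendritic markers, 5 were higher and 1 lower in mature cells, with a summed level of 4506 to 4650 FPKM in immature and 6928 to 9029 FPKM in mature libraries. Cd74 made up most of that sum, at 3387 to 3491 FPKM in immature and 4345 to 6029 FPKM in mature libraries. Of 10 macrophage and monocyte markers, 9 were lower and none higher, with a summed level of 1129 to 1168 FPKM in immature and 222 to 268 FPKM in mature libraries. All 12 heart muscle markers were higher: they summed to 2.93 to 3.32 FPKM in immature libraries, 13.2 FPKM in mature replicate 1 and 326 to 342 FPKM in mature replicates 2 to 4, which stand apart in this respect. In bulk RNA, fewer cells of a type and less RNA per cell cannot be told apart, and the part of these markers in the results below was not tested except where values are given.

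Of the 10 genes, all of which passed the filter on low counts, 6 passed the criteria: Fabp4 and Fabp5 rose, and Pparg, Apoe, Lpl and Plin2 fell in mature cells. By comparison, 23.1% of all genes tested passed, 13.2% as higher and 9.95% as lower. A further 3 genes (Nr1h3, Abcg1 and Mylip) passed the adjusted p but not the fold criterion, which made 9 of 10 against 46.1% of all genes. The groups did not overlap in CPM for 9 genes, as for 52.1% of all genes. The median log2 fold change of the 10 was -0.57, and that of all genes tested 0.05.

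**Figure D1:**
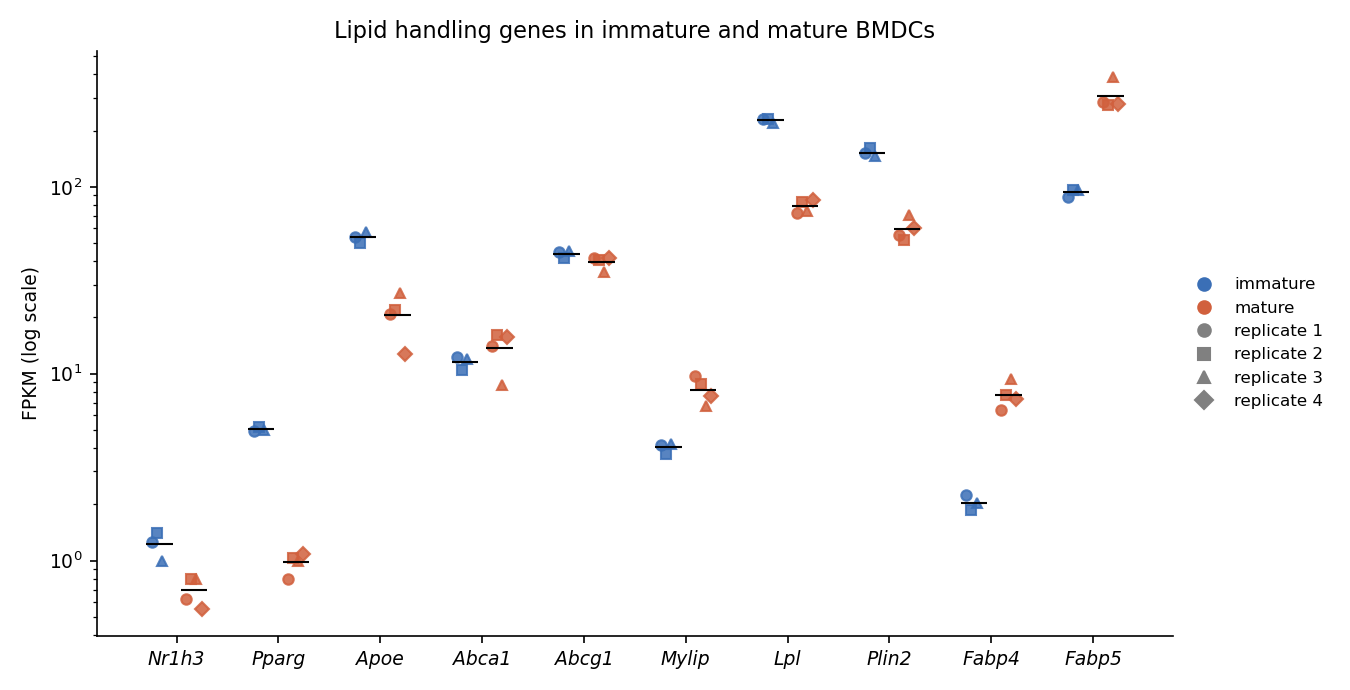
FPKM on a log axis of the 10 genes in each of the 3 immature (blue) and 4 mature (orange) libraries. Marker shapes give the replicate number and horizontal lines the group means. Pparg, Apoe, Lpl and Plin2 sit lower and Fabp4 and Fabp5 higher in all 4 mature libraries than in any immature library, while Abca1 overlaps.

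Both receptor transcripts were lower in mature cells, Pparg past both criteria and Nr1h3 past the adjusted p alone. Pparg (ENSMUSG00000000440, chr6:115360951-115490399, plus strand) was at 4.96, 5.17 and 4.99 FPKM in immature replicates 1 to 3, and at 0.80, 1.03, 0.99 and 1.09 FPKM in mature replicates 1 to 4. Every mature library lay below every immature library, with a wide gap and little spread within either group. In CPM it fell from 16.98 ± 0.37 (SD, n = 3) to 3.07 ± 0.42 (SD, n = 4), which is 5.52-fold, with a log2 fold change of -2.47 ± 0.14 (SE, edgeR with adjusted p = 2.4e-06). An antisense gene, Gm44079, is annotated across part of the locus. The kit marks strand, but whether the counting used it is not stated in the sources used here.

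Nr1h3, which encodes LXRα (ENSMUSG00000002108, chr2:91184061-91202834, minus strand), was at 1.26, 1.41 and 0.99 FPKM in immature and at 0.62, 0.80, 0.80 and 0.55 FPKM in mature libraries. The groups did not overlap, yet immature replicate 3 came close to the upper mature libraries, and the gene rested on only 93 to 224 counts per library. Its log2 fold change was -0.89 ± 0.23 (SE, edgeR with adjusted p = 0.012), short of the fold criterion. Without immature replicate 3 it was -1.01 (edgeR adjusted p = 0.020), past both criteria, and without immature replicate 2 it was -0.79 (edgeR adjusted p = 0.055), past neither. Annotated genes on either strand (Gm13783 and Gm23390) overlap the locus.

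The partners of these receptors changed in both directions. Of 14 tested genes of receptors, coactivators and corepressors, 3 were past the criteria as higher and 2 as lower. This was a share of 35.7%, against 23.1% of all genes tested. The median log2 fold change of the 14 was 0.02. The 3 higher ones were named after their values were seen. Rxrg had 0 counts in immature libraries and mature replicate 1, and 85, 43 and 82 counts in mature replicates 2 to 4. Ppargc1a had at most 4 counts in immature libraries, 16 in mature replicate 1, and 144, 120 and 87 in mature replicates 2 to 4. Nrip1 was higher in every mature library, with a log2 fold change of 1.47 ± 0.24 (SE, edgeR with adjusted p = 0.0011). Rxra (RXRα) fell from 10.42 ± 0.38 (SD, n = 3) to 3.08 ± 0.33 FPKM (SD, n = 4), a log2 fold change of -1.87 ± 0.09 (SE, edgeR with adjusted p = 1.1e-06). Nr1h2 (LXRβ) was at 28.72 to 31.11 FPKM in immature and 30.36 to 34.55 FPKM in mature libraries. That is far above Nr1h3 in FPKM in every library, and the groups overlapped, with a log2 fold change of 0.00 ± 0.09 (SE, edgeR with adjusted p = 0.998). Rxrb had a log2 fold change of 0.28 ± 0.09 (SE, edgeR with adjusted p = 0.031) and Ppard, the widely expressed PPARδ, one of -0.19 ± 0.11 (SE, edgeR with adjusted p = 0.17). Ppara had no more than 0.11 FPKM in any library and was not tested.

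The 3 efflux genes had unlike values. Apoe, the apolipoprotein that accepts cholesterol leaving the cell (ENSMUSG00000002985, chr7:19696109-19699188, minus strand), was at 53.81, 49.98 and 57.39 FPKM in immature and at 20.80, 21.90, 26.92 and 12.74 FPKM in mature libraries. All mature libraries were lower, and they spread over a wider range than the immature ones, with replicate 3 highest and replicate 4 lowest. Its CPM fell 2.79-fold, from 131 ± 12.1 (SD, n = 3) to 46.9 ± 15.0 (SD, n = 4), a log2 fold change of -1.48 ± 0.23 (SE, edgeR with adjusted p = 0.00084).

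Abca1, the transporter that loads cholesterol onto lipid-poor apolipoproteins (ENSMUSG00000015243, chr4:53030787-53159895, minus strand), was at 12.23, 10.47 and 11.93 FPKM in immature and at 14.11, 16.17, 8.72 and 15.79 FPKM in mature libraries. Mature replicate 3 lay below all immature libraries and the other 3 mature libraries lay above them. Over all libraries the log2 fold change was 0.13 ± 0.17 (SE, edgeR with adjusted p = 0.59), and no difference was detected. Without mature replicate 3 it was 0.29 (edgeR adjusted p = 0.0090), still short of the fold criterion.

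Abcg1, which moves cholesterol to high-density lipoprotein (ENSMUSG00000024030, chr17:31057675-31117988, plus strand), was at 44.73, 41.46 and 45.55 FPKM in immature and at 41.64, 40.40, 35.01 and 41.74 FPKM in mature libraries. In FPKM the groups overlapped slightly, and in CPM they did not. The log2 fold change was -0.26 ± 0.08 (SE, edgeR with adjusted p = 0.029). In 9 of 16 alternative settings the adjusted p was 0.05 or more, with a highest value of 0.20, among them the fits without immature replicate 1 (0.093), immature replicate 3 (0.13) or mature replicate 2 (0.075), so that this difference is small and sensitive to the setting. In FPKM, Abcg1 exceeded Abca1 by 3.66 to 3.96 times in immature and by 2.498 to 4.01 times in mature libraries.

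Many other genes of sterol handling were lower in mature cells. Of 16 tested genes of sterol efflux and LXR response, 9 were lower and 1 higher past the criteria, a share of 62.5%. By comparison, 23.1% of all genes tested passed. The median log2 fold change of the 16 was -1.31. Pltp, the phospholipid transfer protein, fell from 447.4 ± 5.35 (SD, n = 3) to 84.5 ± 8.08 FPKM (SD, n = 4), a log2 fold change of -2.51 ± 0.11 (SE, edgeR with adjusted p = 5.5e-07). Lipa, the lysosomal acid lipase that frees cholesterol from its esters, had one of -2.30 ± 0.12 (SE, edgeR with adjusted p = 1.5e-06). Nceh1, a neutral cholesterol ester hydrolase, had one of -2.18 ± 0.08 (SE, edgeR with adjusted p = 4.5e-07). The macrophage markers fell in the same libraries, as given above, and their part in these falls was not tested.

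**Figure D2:**
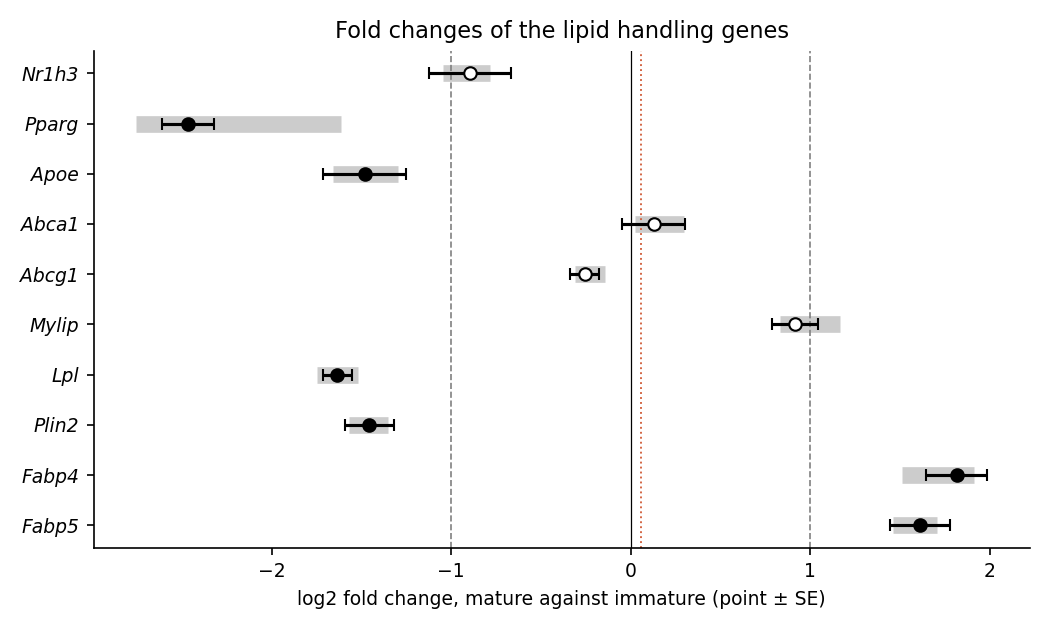
Log2 fold change of the 10 genes, mature against immature, with the standard error of the edgeR fit; filled points passed the criteria. Grey bars span the values under the alternative settings, dashed lines mark the fold criterion of 1 in either direction and the dotted line the median of all genes. Pparg has the lowest value, at -2.47, and Fabp4 the highest, at 1.81.

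Of the genes grouped under uptake, Lpl was lower and Mylip, which limits uptake, was higher. Lpl, the lipase that frees fatty acids from lipoprotein triglycerides (ENSMUSG00000015568, chr8:68880491-68906934, plus strand), was at 230.60, 229.69 and 221.03 FPKM in immature and at 72.88, 83.08, 74.35 and 84.90 FPKM in mature libraries. Each group was tight and the gap between them large. The CPM fell 3.10-fold, from 2708 ± 19.2 (SD, n = 3) to 872 ± 58.7 (SD, n = 4), a log2 fold change of -1.63 ± 0.08 (SE, edgeR with adjusted p = 1.1e-06). Mylip, a ubiquitin ligase that marks the LDL receptor for breakdown (ENSMUSG00000038175, chr13:45389742-45412022, plus strand), was at 4.16, 3.71 and 4.23 FPKM in immature and at 9.78, 8.77, 6.72 and 7.58 FPKM in mature libraries. It was higher in all 4 mature libraries, with a log2 fold change of 0.91 ± 0.13 (SE, edgeR with adjusted p = 0.00045), just short of the fold criterion.

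Some receptors that take up lipoproteins fell in mature cells. Of 17 tested genes of lipid uptake, 4 were lower and 1 higher past the criteria, a share of 29.4% and near that of all genes, with a median log2 fold change of -0.43. The higher one, Gpihbp1, an endothelial anchor of lipoprotein lipase named after its values were seen, had 0 counts in immature libraries and mature replicate 1 and 52, 65 and 80 counts in mature replicates 2 to 4. Msr1, a scavenger receptor, fell from 22.67 ± 1.07 (SD, n = 3) to 4.75 ± 0.64 FPKM (SD, n = 4), a log2 fold change of -2.36 ± 0.11 (SE, edgeR with adjusted p = 9.7e-07). Lrp1, a large receptor of the LDL receptor family, had a log2 fold change of -2.11 ± 0.15 (SE, edgeR with adjusted p = 8.0e-06).

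Plin2, which coats lipid droplets (ENSMUSG00000028494, chr4:86648386-86670060, minus strand), was at 151.27, 161.10 and 146.00 FPKM in immature and at 55.62, 51.74, 70.66 and 60.48 FPKM in mature libraries. All mature libraries were lower, and replicate 3 was the highest of them. The CPM fell 2.74-fold, from 610 ± 18.8 (SD, n = 3) to 223 ± 41.9 (SD, n = 4), a log2 fold change of -1.46 ± 0.14 (SE, edgeR with adjusted p = 4.1e-05). A processed copy, Gm12551, shares 4.89% of the 50-base stretches of the Plin2 transcript and had at most 24 counts in a library. Of 18 tested genes of lipid droplets and lipolysis, 3 were lower and 2 higher past the criteria, a share of 27.8% and near that of all genes, with a median log2 fold change of -0.15. The 3 lower ones were Mgll, monoacylglycerol lipase, with a log2 fold change of -1.37 ± 0.08 (SE, edgeR with adjusted p = 3.5e-06), Lpin1 and G0s2.

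The fatty acid carriers rose together. Fabp5, a binding protein found in many cell types (ENSMUSG00000027533, chr3:10012548-10016607, plus strand), was at 88.32, 95.85 and 96.53 FPKM in immature and at 285.00, 275.70, 385.90 and 277.20 FPKM in mature libraries. Mature replicates 1, 2 and 4 lay close together and replicate 3 stood above them. The CPM rose 3.06-fold, from 380 ± 23.5 (SD, n = 3) to 1162 ± 265 (SD, n = 4), a log2 fold change of 1.61 ± 0.17 (SE, edgeR with adjusted p = 7.4e-05). Without mature replicate 3 it was 1.46 (edgeR adjusted p = 4.5e-08). Of the 50-base stretches of the Fabp5 transcript, 21.1% recur in transcripts of other genes, so its count carries some uncertainty: the copy with the most counts, Gm6166, had 123 to 560 per library.

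Fabp4, the carrier best known from fat cells and macrophages (ENSMUSG00000062515, chr3:10204088-10208576, minus strand), was at 2.24, 1.86 and 2.03 FPKM in immature and at 6.42, 7.70, 9.38 and 7.37 FPKM in mature libraries. All mature libraries were higher, replicate 3 most of all. The CPM rose 3.52-fold, from 10.5 ± 1.01 (SD, n = 3) to 36.8 ± 7.59 (SD, n = 4), a log2 fold change of 1.81 ± 0.17 (SE, edgeR with adjusted p = 3.9e-05). Fabp4 is a textbook target of PPARγ, whose transcript had the largest fall of the 10. Of the 6 fat cell markers in the table, 5 (Adipoq, Plin1, Cidec, Retn and Adrb3) were below 0.1 FPKM in every library. The other one, Lipe, was at 5.27 to 6.12 FPKM in immature and 12.69 to 14.60 FPKM in mature libraries. It made up nearly all of the sum of the 6. That sum was 5.32 to 6.21 FPKM in immature and 12.7 to 14.6 FPKM in mature libraries. In FPKM, Fabp5 exceeded Fabp4 by 39.4 to 51.5 times in immature and by 35.8 to 44.4 times in mature libraries.

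Because of these opposite changes, the most abundant transcript of the group was a different one in the 2 stages. In immature cells Lpl held 37.4% to 38.8% of the summed FPKM of the 10 genes and Fabp5 14.9% to 16.3%. In mature cells Fabp5 held 54.3% to 62.3% and Lpl 12.0% to 16.7%. The ratio of Fabp5 to Lpl FPKM was 0.41 ± 0.03 (SD, n = 3) in immature and 3.92 ± 0.90 (SD, n = 4) in mature cells. The sum itself was 591 to 601 FPKM in immature libraries, 619 FPKM in mature replicate 3 and 507 to 509 FPKM in the other mature libraries. However, the FPKM of all genes summed to 381707 in mature replicate 3 and to at most 337706 in any other library. As a share of that total, the 10 genes held 0.180% in each immature library and 0.162% in mature replicate 3. In the other mature libraries they held 0.151% to 0.154%.

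**Figure D3:**
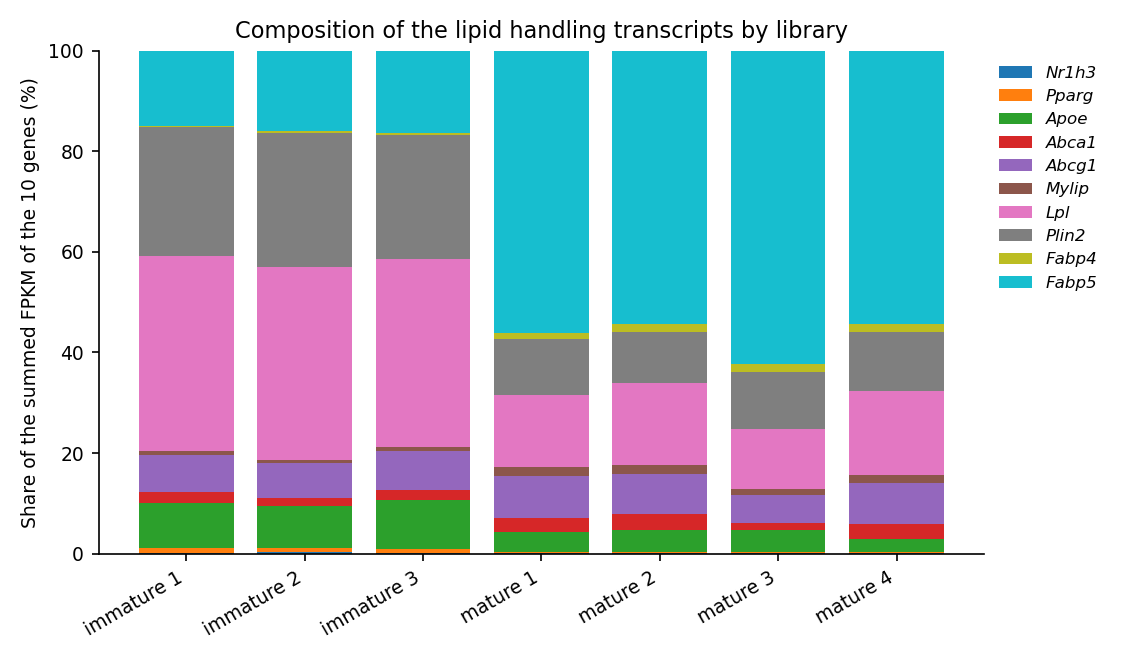
Share in percent of the summed FPKM of the 10 genes that each gene held in each library, as stacked bars. Lpl and Plin2 make up most of the immature bars, and Fabp5 makes up over 54% of every mature bar.

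In immature cells the order of mean FPKM from the top was Lpl, Plin2, Fabp5, Apoe, Abcg1, Abca1, Pparg, Mylip, Fabp4 and Nr1h3, and no neighbours in that order overlapped between libraries. In mature cells it was Fabp5, Lpl, Plin2, Abcg1, Apoe, Abca1, Mylip, Fabp4, Pparg and Nr1h3. There the libraries of Apoe and Abca1, of Abca1 and Mylip, of Mylip and Fabp4, and of Pparg and Nr1h3 overlapped. Within each mature library, however, Pparg stayed above Nr1h3 and Abca1 above Mylip. The order of Apoe and Abca1, and that of Mylip and Fabp4, varied between mature libraries. Fabp4 took a higher place than Pparg in mature cells and a lower one in immature cells.

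Mature replicate 1 held few heart muscle transcripts and showed the same changes of the 6 genes. Compared alone with the 3 immature libraries, mature replicate 1 gave a log2 fold change of -2.75 for Pparg, -1.48 for Apoe, -1.75 for Lpl and -1.57 for Plin2. It gave 1.54 for Fabp4 and 1.497 for Fabp5. All 6 passed the criteria in that fit, and Nr1h3 at -1.05 (edgeR adjusted p = 0.025) and Mylip at 1.17 (edgeR adjusted p = 0.00013) passed them too. The single mature library is assumed there to vary as the immature libraries do.

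Some other PPAR targets behaved unlike Fabp4 in this respect. Of 18 tested, 7 were higher and 3 lower past the criteria, a share of 55.6% against 23.1% of all genes tested. The median log2 fold change of the 18 was -0.03. Of the 7 higher, 4 were over 10-fold higher in mature replicates 2 to 4 than in mature replicate 1 and the immature libraries. Pdk4, a kinase that restrains glucose oxidation, had at most 10 counts in an immature library, 14 counts in mature replicate 1, and 2344, 2169 and 2323 counts in mature replicates 2 to 4. Its log2 fold change of 7.95 ± 1.69 (SE, edgeR with adjusted p = 0.0048) became 0.88 with mature replicate 1 alone. Cd36, a fatty acid transporter and scavenger receptor, fell in all mature libraries, from 400.0 ± 17.8 (SD, n = 3) to 102.1 ± 15.8 FPKM (SD, n = 4), a log2 fold change of -2.08 ± 0.11 (SE, edgeR with adjusted p = 1.8e-06). Ehhadh, a peroxisomal enzyme of fatty acid oxidation, had one of 1.11 ± 0.23 (SE, edgeR with adjusted p = 0.0045).

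Fabp3 of the FABP family was also high in mature replicates 2 to 4 alone. This gene, the heart carrier and itself one of the heart markers counted above, was at 0.30 to 0.36 FPKM in immature libraries, 0.21 FPKM in mature replicate 1, and 40.83, 40.64 and 42.91 FPKM in mature replicates 2 to 4. It was named after its values were seen, as was the droplet protein Plin5, which had 0 counts in immature libraries and mature replicate 1 and 186, 102 and 148 counts in mature replicates 2 to 4. Over all 6 pathway lists, which hold none of the 10 genes, 16 of 86 tested genes were higher and 21 lower past the criteria. Among all genes tested, 13.2% were higher and 9.95% lower, 23.1% in all. The lists had 43.0% in all, with a median log2 fold change of -0.20. The higher genes numbered 9 without mature replicate 2 and 10 without mature replicate 4, immature replicate 1 or immature replicate 3, and 5 among the 67 genes that reached 1 FPKM in 3 libraries, where 19 were lower. Of the 16 higher genes, 8 were over 10-fold higher in mature replicates 2 to 4 than in mature replicate 1 and the immature libraries.

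**Figure D4:**
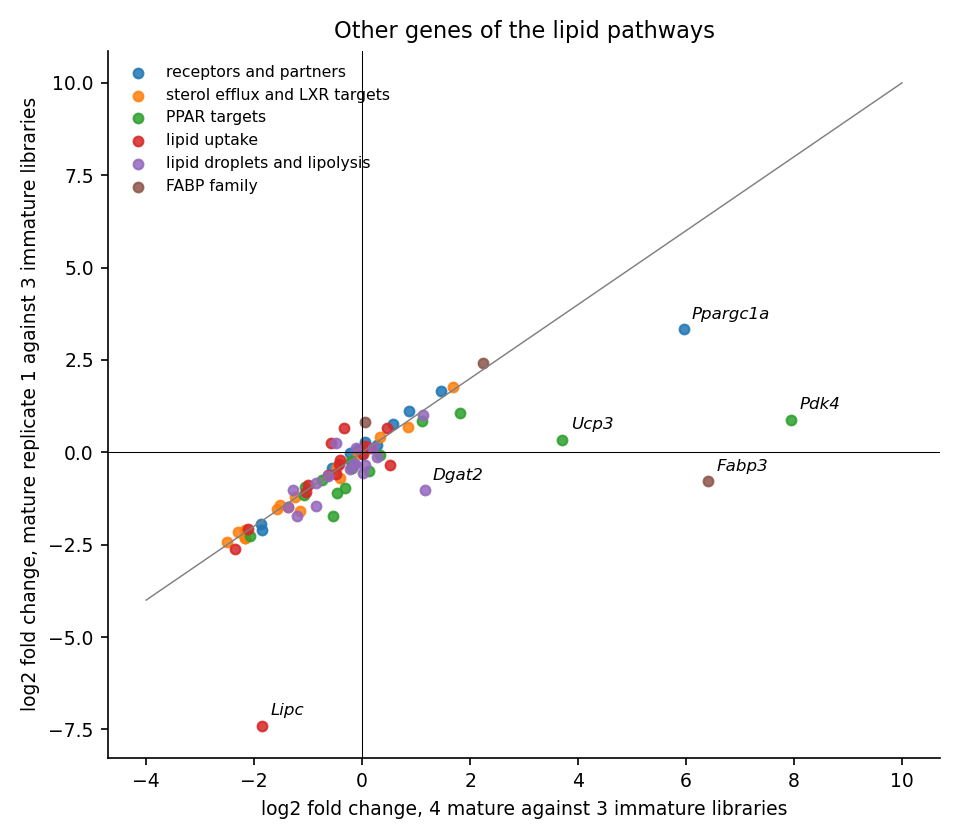
Log2 fold change of the other lipid pathway genes in all libraries (horizontal) against that with mature replicate 1 alone (vertical), for genes tested in both fits and coloured by list, with the line of equal values. Genes that fell lie near the line, whereas Pdk4 (7.95 against 0.88) and Fabp3 (6.41 against -0.78) lie far below it. Lipc (-1.85 against -7.40) had 0 counts in mature replicate 1 and at most 32 in any library.

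Among the 10 genes, the ratio of mature replicate 3 to the other mature libraries tended to be higher for shorter transcripts. Exceptions were Mylip, below the longer Lpl and Abcg1, and the shortest, Fabp4, below Fabp5, itself below the longer Apoe. In mature replicate 3, CPM was 1.60 times the mean of the other 3 mature libraries for Apoe, 1.51 for Fabp5 and 1.43 for Fabp4. Their transcripts are 1408, 987 and 896 bases long. Plin2, Nr1h3 and Pparg, with 1888, 1955 and 2125 bases, had ratios of 1.38, 1.33 and 1.10. The ratio was 0.85 for Mylip, with 3065 bases, 0.93 for Abcg1 and 0.62 for Abca1, with 5832 and 10262 bases. For Lpl, with 4115 bases, it was 1.01, and over all genes tested its median was 1.00, with a 5th percentile of 0.32 and a 95th percentile of 1.95, a range that holds all 10 genes. Without this library the 6 genes past the criteria remained the same 6, with log2 fold changes from -2.48 for Pparg to 1.69 for Fabp4. The part of transcript length or RNA quality in these values was not tested.

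**Figure D5:**
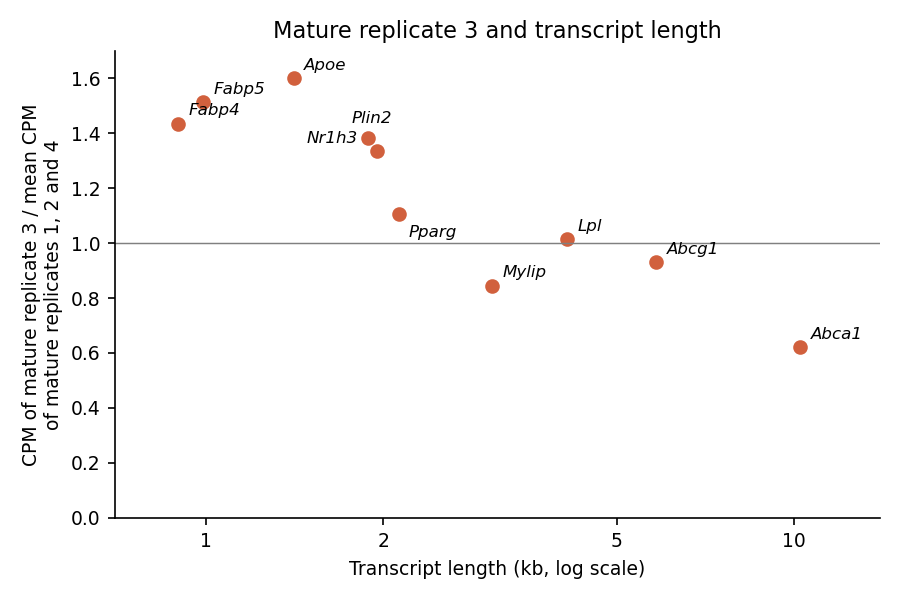
CPM of mature replicate 3 divided by the mean CPM of mature replicates 1, 2 and 4, for each of the 10 genes, against transcript length in kilobases on a log axis. The ratio is 1.60 for Apoe and 0.62 for Abca1, the longest transcript.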

How the data were processed

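RNA of flow-sorted immature (3 libraries) and mature (4 libraries) BMDCs was analysed, with groups and replicate numbers from the sample labels. The authors deposited raw whole-number counts per gene and library, and FPKM values, scaled by gene length and library total and rounded to 2 decimals. The submitters' processing notes name cutadapt 1.9, HISAT2 2.2.1, StringTie 2.1.6, DESeq2 and edgeR, without their roles, and the build mm9. The coordinates of the deposited table, however, are those of GENCODE M21 on GRCm38 for 90.3% of the shared gene IDs, and GRCm38 is used here. The library kit marks strand and selects poly(A) RNA. The counting program is not given in the sources used here.

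Group differences were fitted on the counts with edgeR 4.0.16 in R 4.3.3 (its filter on low counts, TMM scaling, quasi-likelihood test, no covariates, all 7 libraries). Standard errors (SE) were obtained from the fold change and the F statistic, as |log2 fold change|/√F. Total counts were 54846746 to 67973086 per library, and depth bears on counting error only. Alternatives were DESeq2 1.42.0, limma 3.58.1 on log2(FPKM + 1) and log2(FPKM + 0.1), other scalings and filters, each library left out, mature replicate 1 alone, and the replicate number as a block.

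On simulated counts with 200 genes changed 4-fold, edgeR tested 17338 genes, recovered 200 and called 8 others. DESeq2 tested 16233, recovered 199 and called 12 others. limma tested 11506, among them 171 of the changed genes, recovered 155 and called 3 others. Promoters come from RefSeq (GRCm38.p6) and transcript lengths from GENCODE M21 (the longest protein-coding transcript). The 10 genes, the 6 pathway lists and the 7 marker lists were chosen with earlier results of these data known. Within pathway lists, genes were named by rule: Nr1h2, Rxra, Rxrb, Ppara and Ppard, and otherwise the 3 largest changes past the criteria whose groups did not overlap and whose higher group averaged 1 FPKM or more. No gene of the FABP list met the rule. Results of 2 listed genes are not reported here. Of the listed genes, 11 had no row by symbol and were not analysed here. Tables were handled in Python 3.11.15 with pandas 2.3.3 and numpy 2.4.6, and figures drawn with matplotlib 3.10.9.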

Additional observations from a re-analysis of the deposited data

Results flagged for a closer look

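Among the mature libraries, the CPM of Fabp5 in replicate 3 stood apart: its gap to the nearest mature library was 0.901 of the range of the group, above Dixon's critical value for 4 samples. It was the only one of the 10 genes so marked, and chance marks about 1 in 20 such groups. Without this library Fabp5 kept a log2 fold change of 1.46 (edgeR adjusted p = 4.5e-08).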

How the results depend on the processing

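None of the 10 genes changed direction under any alternative run, and Pparg, Apoe, Lpl, Plin2, Fabp4 and Fabp5 passed the criteria in all 16. The genes past the criteria numbered 2665 when 3 libraries had to reach 1 FPKM, 2561 with limma on log2(FPKM + 0.1), 1768 with limma on log2(FPKM + 1) and 8053 by adjusted p alone. Pathway genes numbered 24, 22 and 19 under the first 3 of these, against 37 (fewer genes were tested, 67 against 86). With each library left out they ranged from 28 to 39 (9 to 17 of them higher), the 10 genes from 6 to 7, and all genes from 3646 to 4052. Scaling by the library total alone shifted the median log2 fold change of all genes by 0.10 (DESeq2 by 0.13 and no filter by 0.12, both over 27808 genes), and Mylip then passed the fold criterion at 1.02. Nr1h3 was tested in 13 alternatives, being below the FPKM minimum in the others. Same-numbered libraries of the groups correlated by 0.029, -0.001 and 0.014 in their deviations, so the numbers were not taken as pairs. With the replicate block, 3616 genes, 6 of the 10 and 37 pathway genes passed, and the adjusted p was 0.070 for Nr1h3 and 0.10 for Abcg1. A comparison of FABP protein sequences was planned and not run.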

Other observations

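Markers of other cell types were measured beside the lipid genes. Of 8 endothelial markers, 4 were higher and 1 lower past the criteria in mature cells, and together they summed to 12.9 to 13.6 FPKM in immature and 3.94 to 7.18 FPKM in mature libraries. Cdh5, Tek and Gpihbp1 among them were at 0.13 to 0.71 FPKM in mature replicates 2 to 4, the libraries with the heart muscle transcripts, and at no more than 0.08 FPKM in the other libraries. Tie1 and Egfl7 were also highest in mature replicates 2 to 4, whereas Vwf, Pecam1 and Kdr were each highest in an immature library. Vwf was at 8.13 to 8.68 FPKM in immature and 1.03 to 1.53 FPKM in mature libraries. Of 5 tested epithelial markers 1 was higher, and the list summed to 17.4 to 21.4 FPKM in immature and 13.9 to 21.9 FPKM in mature libraries. Of 4 tested granulocyte markers 1 was lower, and the list summed to 4.87 to 7.33 FPKM in immature and 7.66 to 9.59 FPKM in mature libraries. Among lipid genes outside the rule for naming, Lipe, hormone-sensitive lipase, was at 5.82 ± 0.48 FPKM (SD, n = 3) in immature and 13.67 ± 0.90 FPKM (SD, n = 4) in mature libraries. Its log2 fold change was 1.13 ± 0.10 (SE, edgeR with adjusted p = 3.2e-05) and 1.02 with mature replicate 1 alone. Soat1, which esterifies cholesterol for storage, had a log2 fold change of -2.17 ± 0.07 (SE, edgeR with adjusted p = 2.5e-07). Both were chosen after their values were seen.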
